A study of Mus musculus with 10 samples.

Results

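Voltage-gated sodium channel subunits were followed in mouse spinal cord through 7 genes picked by symbol: Scn1a, Scn2a, Scn3a, Scn8a, Scn2b, Scn3b and Scn4b. The rule reads no measured value, but the genes were chosen with earlier results of these data known. Their Entrez Gene identifiers in the deposited files are 20265, 110876, 20269, 20273, 72821, 235281 and 399548, in that order. These are 7 of the 26301 identifiers listed, and all 7 were among the 15540 genes that passed the filter on low counts. Whole-cord RNA of C57BL/6 mice, an inbred laboratory strain, was sequenced in 10 libraries: 2 male and 2 female at 4 weeks of age, 3 male and 3 female at 8 weeks. The labels name no mutation and no treatment. They number the libraries of a group without stating whether each is a separate animal or a pool, so p-values measure the spread between these libraries, which may be technical. The comparisons were of the 2 ages, of the sexes, and of the age difference between the sexes.

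Voltage-gated sodium channels open on depolarisation, carry the rising phase of the action potential and then inactivate. An alpha subunit forms the whole pore. Scn1a, Scn2a, Scn3a and Scn8a encode the alpha subunits NaV1.1, NaV1.2, NaV1.3 and NaV1.6, the main ones of the central nervous system. NaV1.1 is prominent in inhibitory interneurons, NaV1.2 in unmyelinated axons and early axon initial segments, NaV1.3 in the embryonic nervous system, and NaV1.6 at mature initial segments and nodes of Ranvier. Beta subunits are single-pass membrane proteins with an immunoglobulin-like domain outside the cell that alter gating and surface expression. Those encoded by Scn2b and Scn4b are linked to the alpha subunit by a disulphide bond, whereas that of Scn3b is not. The cytoplasmic tail of the Scn4b protein is known for its part in the resurgent current of fast-firing neurons.

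Scn2b and Scn4b are next to each other on chromosome 9 with no other protein-coding gene between them in the RefSeq table (GRCm38.p6), and both lie on the plus strand. The 250 bases upstream of each start are shown because this neighbouring pair differed with age in its count ratio. It was the one that did so among the 4 ratios examined, and other pairs of subunits were not tested. The interval for Scn2b is chr9:45117626-45117875 and that for Scn4b is chr9:45138374-45138623, with CG dinucleotides in capitals.
Scn2b: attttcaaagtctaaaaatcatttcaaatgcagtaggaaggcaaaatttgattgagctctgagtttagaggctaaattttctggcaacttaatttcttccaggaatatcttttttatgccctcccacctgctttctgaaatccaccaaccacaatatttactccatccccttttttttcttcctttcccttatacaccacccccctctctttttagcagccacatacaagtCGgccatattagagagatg
Scn4b: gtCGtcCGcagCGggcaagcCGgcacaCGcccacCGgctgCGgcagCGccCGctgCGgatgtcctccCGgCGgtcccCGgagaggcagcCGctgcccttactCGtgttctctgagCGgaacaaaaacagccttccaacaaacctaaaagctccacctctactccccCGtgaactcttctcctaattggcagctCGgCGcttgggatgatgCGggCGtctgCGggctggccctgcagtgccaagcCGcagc
The Scn2b stretch holds 1 CG and is 38.4% G or C, and the Scn4b stretch holds 23 CG and is 66% G or C. Among 32851 RefSeq upstream stretches of this length the median was 6 CG. At most as many as in Scn2b were found in 18.8% of them, and at least as many as in Scn4b in 13.3%. Neither stretch holds GGGCGG or TATAAA on either strand, letters found in 32.7% and 12.4% of all stretches. Of the 7 genes, 5 had an entry in this table.

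The unit of level is CPM, that is, counts divided by the library total with TMM scaling, a correction for differences in library makeup. Per kb of exon, which allows genes to be compared, Scn4b had the highest level over the 10 libraries, 106 ± 10.2 CPM per kb (SD, n = 10). It was followed by Scn1a at 39.2 ± 4.94, Scn2b at 30.2 ± 1.32, Scn8a at 26.2 ± 3.63, Scn2a at 8.82 ± 1.28, Scn3b at 8.47 ± 0.508 and Scn3a at 2.68 ± 0.402 CPM per kb (SD, n = 10 each). The ranges over libraries of Scn1a and Scn2b overlapped, as did those of Scn2b and Scn8a and those of Scn2a and Scn3b. Scn4b stood above all others and Scn3a below all others in each library. In counts the genes ran from 173 for Scn3a in a 4-week female library to 6022 for Scn4b in an 8-week male library, so counting error was largest for Scn3a. Exon lengths were taken from a GENCODE set on GRCm38 and not from the authors' mm9 annotation, which makes levels per kb approximate. No other gene of that set overlaps the exons of the 7 genes.

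**Figure D1:**
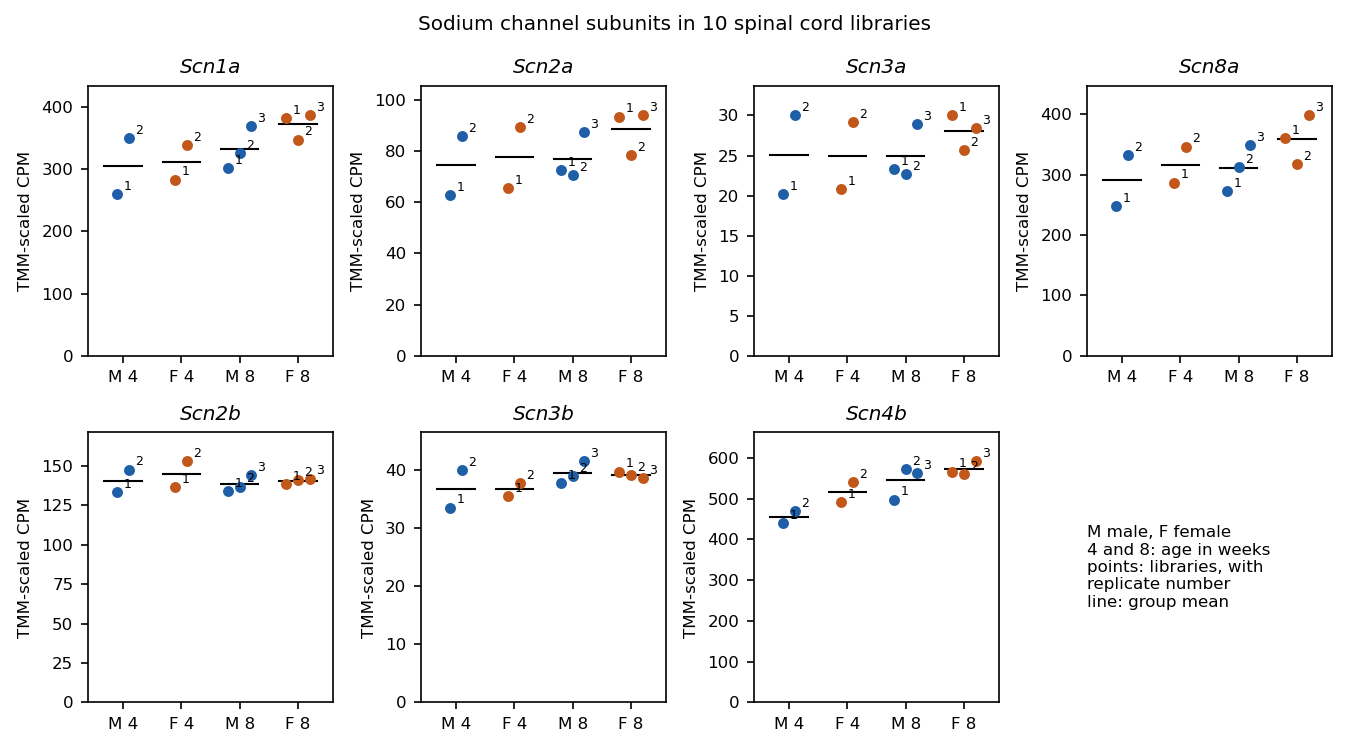
TMM-scaled CPM of each subunit (vertical axes, from 0) in the 10 libraries by sex (M male, F female) and age in weeks (4, 8). Points are libraries with their replicate number and lines are group means. At 4 weeks library 2 lies above library 1 in both sexes for all 7 genes, and Scn4b at 8 weeks lies above 540.4 CPM in 5 of 6 libraries.

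Of the 7 genes 1 rose with age, Scn4b, and the other 6 did not pass the test. In the same fit 6.62% of all tested genes were called in either direction and 1.61% as higher at 8 weeks. A single call among 7 genes is the smallest count above none, and nothing particular to the channel genes is read from it. The median log2 fold change of the 7 genes was 0.12, against 0.01 over all tested genes, and 6 of 7 were above 0. By exon length that median was 0.07 for genes over 6 kb, 0.03 for genes of 4 to 6 kb and -0.06 for genes under 2 kb. The alpha subunit genes belong to the first of these classes and the beta subunit genes to the second.

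Scn1a read 259.5 and 349.3 CPM in the male and 283 and 339 CPM in the female 4-week libraries. At 8 weeks it read 301.9, 326.3 and 369.1 CPM in males and 381.5, 347.2 and 386.9 CPM in females. The ages overlapped, with 3 of 6 8-week libraries above every 4-week library. Means were 307.7 ± 43.4 CPM at 4 weeks (SD, n = 4) and 352.1 ± 33.4 CPM at 8 weeks (SD, n = 6). The log2 fold change was 0.19 (SE 0.09, 95% interval 0.01 to 0.38), with an adjusted p of 0.225 by edgeR's quasi-likelihood test. It passed the threshold only without male 4-week library 2 (0.30, edgeR adjusted p = 0.0290).

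Scn8a, the gene of the nodal channel, read 248.5 and 333 CPM in male and 286.7 and 346.5 CPM in female 4-week libraries. The 8-week values were 272.6, 312.3 and 349.2 CPM in males and 360.3, 317.2 and 398.8 CPM in females. Here too 3 of 6 8-week libraries exceeded every 4-week library. Its age difference was 0.14 on the log2 scale (SE 0.10, 95% interval -0.07 to 0.34, edgeR adjusted p = 0.446).

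Scn2a read 62.9 and 85.9 CPM in male and 65.6 and 89.4 CPM in female 4-week libraries, and 72.5, 70.5, 87.5, 93.5, 78.5 and 94.1 CPM in the 8-week libraries, males first. The difference within each 4-week pair was larger than that between the means of the ages. The log2 fold change was 0.12 (SE 0.11, 95% interval -0.11 to 0.35, edgeR adjusted p = 0.581).

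Scn3a, the embryonic-type subunit, was the least abundant at 20.2, 30.1, 20.8 and 29.2 CPM at 4 weeks and 23.3, 22.7, 28.9, 30.1, 25.7 and 28.4 CPM at 8 weeks, males first at each age. None of the 8-week libraries lay outside the range of the 4-week libraries on the high side, and none on the low side. Scn3a thus had a log2 fold change of 0.07 (SE 0.13, 95% interval -0.20 to 0.34, edgeR adjusted p = 0.799).

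Scn2b was the steadiest of the 7 genes, with a coefficient of variation of 4.36% over the 10 libraries against 12.6% to 15.01% for the alpha subunits. It read 133.3, 147.5, 136.5 and 152.7 CPM at 4 weeks and 134, 136.8, 144, 138.6, 140.9 and 141.8 CPM at 8 weeks, males first. All 8-week values lay inside the 4-week range. The log2 fold change was -0.03 (SE 0.05, 95% interval -0.15 to 0.08, edgeR adjusted p = 0.773).

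Scn3b, the beta subunit held without a disulphide bond, read 33.6, 40, 35.6 and 37.8 CPM at 4 weeks and 37.8, 39, 41.5, 39.8, 39.2 and 38.7 CPM at 8 weeks, males first. The ages overlapped, with 1 of 6 8-week libraries above every 4-week library. The log2 fold change was 0.10 (SE 0.07, 95% interval -0.05 to 0.24, edgeR adjusted p = 0.446).

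Scn4b read 440.5 and 470.2 CPM in male and 491 and 540.4 CPM in female 4-week libraries. At 8 weeks it read 497.3, 572.6 and 563.1 CPM in males and 566.3, 560.6 and 591.1 CPM in females. All 8-week libraries but male library 1 lay above every 4-week library. At least 5 of 6 8-week libraries lay above every 4-week library in 6.6% of all tested genes, and all 6 did in 2.89%. Mean Scn4b was 485.5 ± 42.1 CPM at 4 weeks (SD, n = 4) and 558.5 ± 31.9 CPM at 8 weeks (SD, n = 6), a 1.15-fold difference. The log2 fold change was 0.20 (SE 0.06, 95% interval 0.08 to 0.32, edgeR adjusted p = 0.0435).

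The call of Scn4b was close to the threshold. Leaving out any of 8 libraries ended it, at edgeR adjusted p values of 0.0527 to 0.119 and log2 fold changes within 0.18 to 0.25 over all 10 such fits. Those 8 were male 4-week libraries 1 and 2, female 4-week library 1, male 8-week libraries 2 and 3 and female 8-week libraries 1, 2 and 3. Without female 4-week library 2 or male 8-week library 1 it stayed, at 0.0324 and 0.0307.

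Transcripts of other tissues differed between the ages as well. The summed level of 12 skeletal muscle genes was 479 to 1924 CPM of total counts at 4 weeks and 39.8 to 149 at 8 weeks, and all 12 fell. That of 12 pan-neuronal genes was 7608 to 8358 at 4 weeks and 8635 to 8971 at 8 weeks, and 1 of the 12 rose, Snap25, a synaptic fusion protein. That call did not hold when a single library was removed if it was replicate 2 of the 4-week females, replicate 2 of the 8-week males or replicate 1, 2 or 3 of the 8-week females, at edgeR adjusted p values of 0.0513 to 0.0604. Nor did it hold without the lung-bearing or adrenal-bearing libraries described below (0.126 and 0.167), or with either score below (0.251 and 0.549). With the muscle score, the mean of that list per library, as a covariate the log2 fold change of Scn4b was 0.03 (SE 0.13, edgeR adjusted p = 0.925). Those of Scn1a, Scn2a, Scn3a, Scn8a and Scn3b were then below 0, from -0.62 to -0.14, and none passed (edgeR adjusted p from 0.109 to 0.679). With the neuronal score it was 0.20 (SE 0.12, edgeR adjusted p = 0.523). Since neither sum overlapped between the ages, each cannot be told apart from age here. In whole tissue, fewer cells of a type and less RNA per cell cannot be told apart.

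Adrenal cortex transcripts stood at 90.3 and 124 summed CPM in the 2 male 4-week libraries and at 8.86 to 11.1 elsewhere, and lung transcripts at 799 and 91.2 in male 8-week libraries 2 and 3 and at most 5.98 elsewhere. Without the former pair Scn4b was at 0.15 (SE 0.07, edgeR adjusted p = 0.361), and without the latter at 0.14 (SE 0.06, edgeR adjusted p = 0.272). The adrenal-bearing pair was all of the male 4-week libraries, so without it the age difference rested on the females alone. This holds for each gene given without that pair. The part of these tissues in the Scn4b difference was not tested beyond leaving the libraries out.

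No subunit was called for sex, with 0.0901% of all tested genes called. Scn4b had the lowest unadjusted p of the 7, at a log2 difference of 0.12 for female over male (SE 0.05, 95% interval -0.001 to 0.23, edgeR adjusted p = 0.670). Scn8a stood at 0.17 (SE 0.09, 95% interval -0.03 to 0.37, edgeR adjusted p = 0.671). Within males 3.22% of all genes were called for age and none of the 7 subunits, Scn4b having a log2 fold change of 0.26 (SE 0.08, edgeR adjusted p = 0.0994). Within females 1.45% were called and again none of the 7. Female values were 0.26 (SE 0.13, edgeR adjusted p = 0.449) for Scn1a and 0.15 (SE 0.08, edgeR adjusted p = 0.465) for Scn4b.

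The age difference itself was compared between the sexes, with 0.0129% of all genes called and no subunit. For Scn4b the female minus the male age difference was -0.11 (95% interval -0.34 to 0.13), and for Scn1a it was 0.13 (95% interval -0.25 to 0.52). Intervals of this width leave room for sex differences as large as the age differences. At an unadjusted p under 0.05 none of the 7 passed in edgeR for sex, for age in females or for the interaction, and 1, Scn4b, passed for age in males. DESeq2 was run for age over both sexes only.

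**Figure D2:**
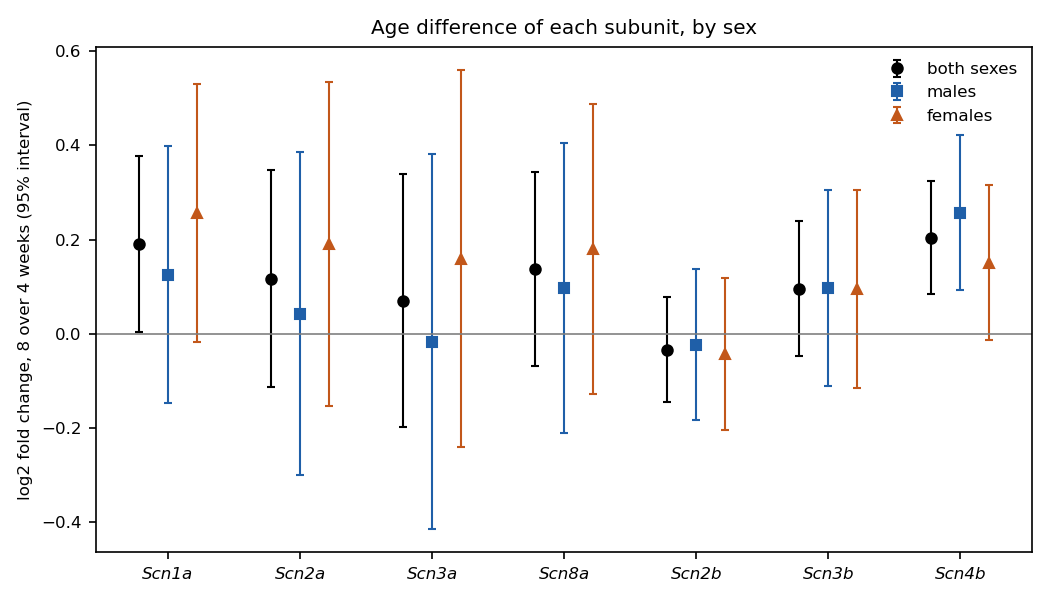
Log2 fold change of 8 over 4 weeks (vertical axis) for each subunit (horizontal axis), over both sexes (black circles), in males (blue squares) and in females (orange triangles), with 95% intervals as bars. For both sexes together the intervals of Scn1a and Scn4b lie above 0, and of these Scn4b alone passed after adjustment, with 0.20 and an interval of 0.08 to 0.32.

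The alpha subunits differed more within the 4-week pairs of libraries than between the ages. In males at 4 weeks library 2 exceeded library 1 by 0.43 (Scn1a), 0.45 (Scn2a), 0.57 (Scn3a) and 0.42 (Scn8a) on the log2 scale. In females the same difference was 0.26, 0.45, 0.49 and 0.27 for these genes. For the beta subunits it was 0.15 (Scn2b), 0.25 (Scn3b) and 0.09 (Scn4b) in males and 0.16, 0.09 and 0.14 in females. These pair differences exceeded the age difference for each alpha subunit in both sexes.

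Genes with long exons moved in the same direction between these libraries. The alpha subunit genes have 8.53 to 12.3 kb of exon and the beta subunit genes 4.52 to 4.98 kb. The median difference of library 2 over library 1 at 4 weeks was -0.23 in males and -0.18 in females for 3112 genes under 2 kb. It was -0.04 and -0.05 for 5609 genes of 2 to 4 kb, 0.12 and 0.06 for 3279 genes of 4 to 6 kb, and 0.30 and 0.22 for 2464 genes over 6 kb. A length score per library, the median centred log2 CPM of genes over 6 kb minus that of genes under 2 kb, ran from -0.40 in male 4-week library 1 to 0.24 in female 8-week library 3. The mean deviation of the 4 alpha subunits ran from -0.35 to 0.23 in the same 2 libraries, and the 5 lowest libraries came in the same order in both. The alpha subunits are among the long genes, so the values are not independent of the score.

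With the length score as a covariate, an alternative chosen after seeing the data, the SE of Scn1a went from 0.09 to 0.04 and that of Scn2a from 0.11 to 0.05. Their log2 fold changes were then 0.10 (edgeR adjusted p = 0.129) and 0.01 (edgeR adjusted p = 0.963), with Scn8a at 0.03 and Scn3a at -0.05. Scn4b stayed called at 0.17 (SE 0.05, edgeR adjusted p = 0.0270), and Scn2b was at -0.07 (SE 0.04, edgeR adjusted p = 0.286). That fit called more of the tested genes for age than the fit without the score did. The origin of the length pattern was not tested.

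**Figure D3:**
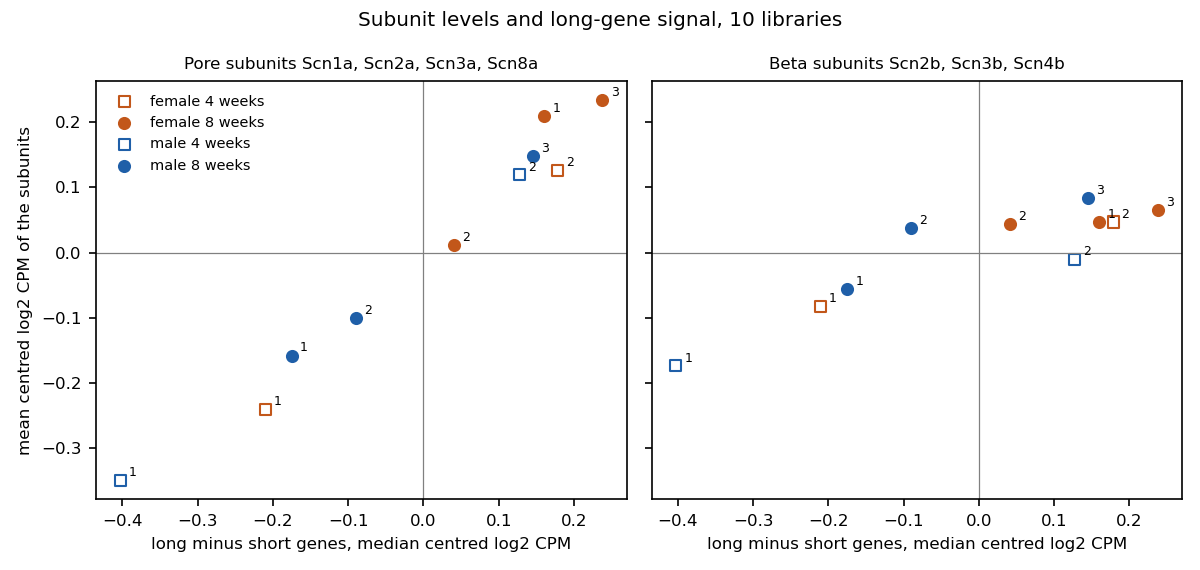
Mean centred log2 CPM of the alpha (pore) subunits, left, and beta subunits, right, on the vertical axis against the length score of each library on the horizontal axis. Points are libraries with their replicate number, open squares 4 weeks and filled circles 8 weeks, blue male and orange female. The alpha subunits run from -0.35 to 0.23 along with a score of -0.40 to 0.24, and the beta subunits over a narrower range.

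Ratios of counts within a library do not depend on scaling. The Scn4b to Scn2b ratio was 3.30 and 3.19 in male and 3.597 and 3.54 in female 4-week libraries. At 8 weeks it was 3.71, 4.19 and 3.91 in males and 4.09, 3.98 and 4.17 in females. Thus the ages did not overlap, with 6 of 6 8-week libraries above every 4-week library. Means were 3.41 ± 0.193 (SD, n = 4) and 4.01 ± 0.181 (SD, n = 6), a log2 difference of 0.23. The exact two-sided permutation test over 210 assignments gave p = 0.004762, the smallest it can give, and 0.0190 after adjustment over the 4 ratios examined. Leaving out replicate 3 of the 8-week males, or replicate 1 or 2 of the 8-week females, the adjusted exact p was 0.0635, with differences of 0.23 to 0.24. Permuted within each sex the adjusted exact p was 0.04. The 2 genes have similar exon lengths, 4.98 and 4.66 kb, and their upstream stretches printed above hold 23 and 1 CG. The part of exon length or of these stretches in the ratio was not tested. The muscle and neuronal sums given above differ between the same 2 sets of libraries, and their part in the ratio was not tested. The 4 ratios were chosen with earlier results of these data known, and ratios of other subunit pairs were not tested.

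The other 3 ratios overlapped between the ages. Scn8a to Scn2a was 4.02 ± 0.237 at 4 weeks (SD, n = 4) and 4.05 ± 0.248 at 8 weeks (SD, n = 6), with an exact permutation p adjusted over the ratios of 0.838. Scn1a to Scn3a was 12.4 ± 0.986 and 13.3 ± 0.639, a log2 difference of 0.10 (adjusted exact permutation p = 0.197). Scn4b to Scn3b was 13.2 ± 1.10 and 14.2 ± 0.757, also 0.10 (adjusted exact permutation p = 0.197). The Scn8a to Scn2a ratio moved less between the ages than between libraries of an age, where it ran from 3.76 to 4.43 at 8 weeks.

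**Figure D4:**
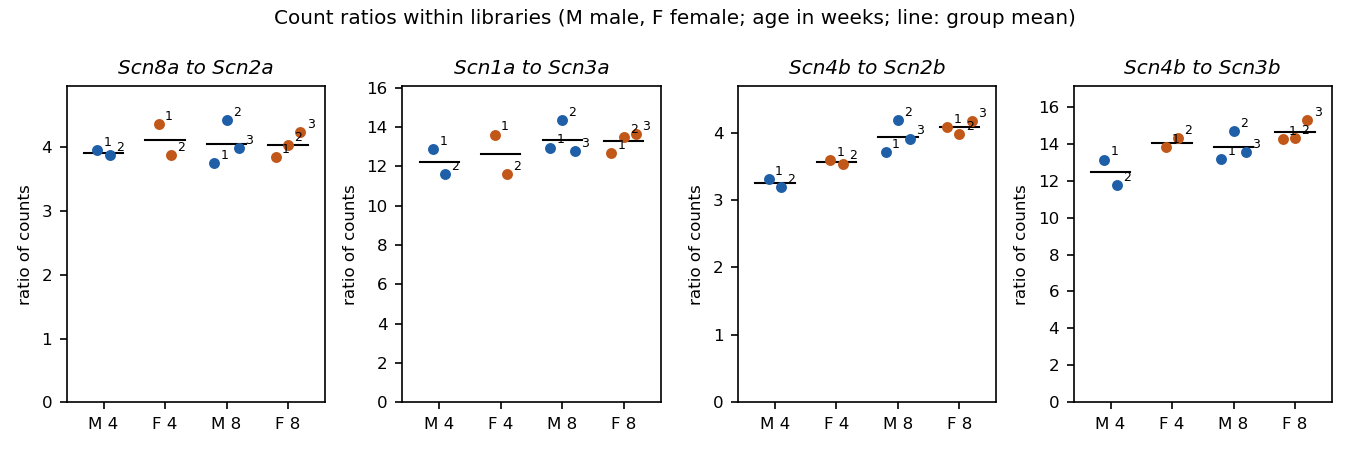
Ratio of the counts of 2 subunits within a library (vertical axes, from 0) by sex (M, F) and age in weeks (4, 8). Points are libraries with their replicate number and lines are group means. Scn4b to Scn2b lies between 3.19 and 3.597 in all 4-week and between 3.71 and 4.19 in all 8-week libraries, and the other ratios overlap.

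A further 6 sodium channel genes were examined, of which 5 were tested and none passed for age by edgeR, with log2 fold changes from 0.14 to 1.57 and a median of 0.22. At an unadjusted p under 0.05 there was 1, Scn11a. Scn7a, an atypical sodium channel, Scn9a, the channel NaV1.7 of peripheral neurons, and Nalcn, the sodium leak channel, stood at 0.22, 0.14 and 0.14, with edgeR adjusted p values of 0.534, 0.726 and 0.362.

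Scn10a and Scn11a, the channels of nociceptors in sensory ganglia, had 71 and 40 counts in male 8-week library 3. In the female libraries they had at most 4 and 2 counts. Their values were thus set by few libraries, and the log2 fold changes of 1.35 (SE 0.71) and 1.57 (SE 0.72) did not pass (edgeR adjusted p = 0.299 and 0.233). Sensory ganglion markers, 7 genes in all, summed to 73.2 CPM in that library and to 40.2 to 71.0 CPM in the others. Calca, the most abundant of them, ran from 34.3 to 62.1 CPM over the libraries and made up most of each sum. The sums thus say little about the less abundant markers. Schwann cell genes, 6 in all, summed to 1381 and 987 CPM in male 4-week libraries 1 and 2. They summed to 1205, 401 and 1299 CPM in male 8-week libraries 1, 2 and 3, and to 439 to 774 CPM in the female libraries. The part of peripheral tissue in the Scn10a and Scn11a values was not tested. Scn4a, the channel of skeletal muscle, was not tested for its low counts, 16 in male 4-week library 1, which had the highest muscle sum, and 1 to 6 elsewhere.

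Of 12 genes for partners of the channels at the initial segment and node, 1 rose and none fell, with a median log2 fold change of 0.13. Fgf12, which encodes an intracellular protein that binds the channel tail, was at 149.8 ± 5.82 CPM at 4 weeks (SD, n = 4) and 170.6 ± 9.34 CPM at 8 weeks (SD, n = 6), with all 6 8-week libraries above every 4-week library. Its log2 fold change was 0.19 (SE 0.05, edgeR adjusted p = 0.0482), and it lost the call without any 1 of 9 libraries, at 0.0585 to 0.124. Male 4-week library 2 was the exception. The call also ended with no filter (0.0543), without the adrenal-bearing (0.0746) or the lung-bearing libraries (0.147), and with the neuronal (0.296) or muscle score (0.583). Nfasc, the adhesion molecule of nodes and paranodes, was at 738.8 ± 152 CPM at 4 weeks (SD, n = 4) and 586.7 ± 59.6 CPM at 8 weeks (SD, n = 6). Its log2 fold change was -0.33 with an edgeR adjusted p of 0.0613, so it was just short of the threshold. It passed without male 4-week library 1 (0.00217), with no filter (0.0176), without both adrenal-bearing libraries (0.0398), with the muscle score (0.0168), with the length score (4.63e-05) and by DESeq2 (0.0211), at log2 fold changes below 0 in each. It did not pass without the lung-bearing libraries (0.0933), with the neuronal score (0.675) or with RLE scaling (0.0628).

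Potassium channel genes of the action potential were all above 0 in their age difference, 14 of 14 with a median of 0.16, yet 1 of them rose and none fell. Kcnab1, a beta subunit of axonal potassium channels, went from 136.6 ± 5.18 CPM at 4 weeks (SD, n = 4) to 159 ± 4.63 CPM at 8 weeks (SD, n = 6). Its log2 fold change was 0.22 (SE 0.05, edgeR adjusted p = 0.0144), and all 6 8-week libraries lay above every 4-week library. Kcna6, a pore subunit, stood at 0.14 (SE 0.05, edgeR adjusted p = 0.120). The call of Kcnab1 held without each single library, and it ended without both adrenal-bearing or both lung-bearing libraries and with the muscle or neuronal score.

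Among markers of the cells that carry or ensheath these channels, 6 motor neuron and 4 neurofilament genes had no call, with medians of 0.14 and 0.07. The motor neuron genes, which mark the ventral horn of the cord, summed to 226 to 273 CPM over the libraries. Chat, the acetylcholine-synthesising enzyme of motor neurons, was at 0.20 (SE 0.11, edgeR adjusted p = 0.315), and Ina, an intermediate filament of axons, at 0.24 (SE 0.08, edgeR adjusted p = 0.0998). Ina passed without male 4-week library 2, at 0.0488. All 8 oligodendrocyte genes fell, with a median of -0.65, among them Mal at -1.05 and Mbp, myelin basic protein, at -0.54 (edgeR adjusted p = 1.96e-07 and 2.64e-05). Their summed level was 57100 to 62220 CPM at 4 weeks and 36820 to 42740 CPM at 8 weeks. Of the 6 genes on the precursor list 2 fell, Gpr17 and Sox10, and of 6 astrocyte genes 1 fell, Aldh1l1. The other 4 genes of the precursor list were not called, at log2 fold changes below 0. Aldh1l1 missed the threshold when replicate 1 or 2 of the 4-week females, replicate 2 of the 8-week males, or replicate 1 or 3 of the 8-week females was removed, at edgeR adjusted p values of 0.0548 to 0.0788. It also missed it without the lung-bearing libraries (0.142) and with the neuronal (0.168) or muscle score (0.654). With the neuronal score Gpr17 and Sox10 were not called either (0.0749 and 0.226), nor was Sox10 with the muscle score (0.590). The part of this shift in the subunit values was not tested.

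**Figure D5:**
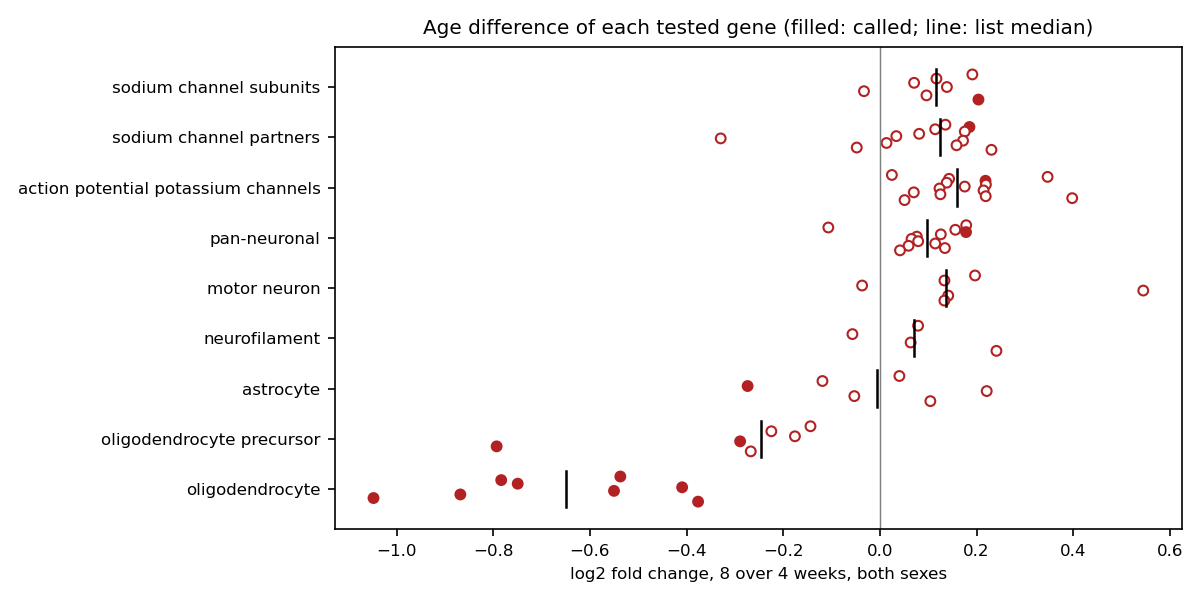
Log2 fold change of 8 over 4 weeks, both sexes (horizontal axis), for each tested gene of 9 gene lists (rows). Points are genes, filled where called by edgeR at an adjusted p under 0.05, and lines are list medians. The sodium channel subunits have a median of 0.12 and 1 filled point, and the 8 oligodendrocyte genes are all filled, with a median of -0.65.

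The genes most like each subunit were found by the root mean square difference of centred log2 CPM over the 10 libraries, a description with no test. For Scn1a these were Aak1, Ralgapb and Stxbp5l, with Aak1 at 0.03. For Scn2a they were Gria2, Hivep2 and Chd9, for Scn3a Hook3, Gria2 and Vps13b, and for Scn8a Dync1h1, Fgf11 and Apc2. Of these named neighbours of the alpha subunits all but Stxbp5l and Fgf11 have over 6 kb of exon. Of the 14464 tested genes with an exon length 2464 are over 6 kb. Since the neighbours were chosen for likeness to long genes, their lengths are not independent of the choice. For Scn2b they were Ppp6r3, a gene without a symbol and Tln1, for Scn3b Cltc, Mtmr6 and Ddhd1, and for Scn4b Nmnat2, Mapk9 and Peg13. The 3 neighbours of Scn4b had age log2 fold changes of 0.20, 0.17 and 0.21 with edgeR adjusted p values of 0.0617, 0.0737 and 0.0535, so none passed. They were chosen for likeness to Scn4b over these same libraries, so age differences near its own follow from the choice. Among the subunits themselves the closest pair was Scn2a and Scn3a at 0.05, and the most distant Scn3a and Scn4b at 0.18.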

How the data were processed

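The values the authors deposited are unnormalized counts of reads, 1 table for each library. Mouse build mm9, the aligner TopHat2 2.1.0 and the read counter featureCounts are named, without their settings, per the submitters' processing notes. Strand, annotation and counting options: not given in the sources used here. Symbols came from a RefSeq table of GRCm38.p6 (24191 of 26301 identifiers), and identifiers without one held at most 0.956% of a library. Library totals were 8453559 to 11594610 counts.

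Tests used edgeR 4.0.16 (R 4.3.3): TMM scaling, filterByExpr (minimum count 10), two-sided quasi-likelihood test, Benjamini-Hochberg adjustment over 15540 genes at 0.05. The additive model (sex and age) left 7 residual degrees of freedom. A 4-group model, which left 6, gave the age difference of each sex and the interaction. Ratios were tested by exact permutation. The fit was run on simulated counts with known age changes and the spread fitted to these data. They held no length or tissue pattern, so that run cannot speak to such patterns. Exon lengths covered 93.1% of tested genes. DESeq2 1.42.0, RLE scaling, no filter, leaving out libraries, a replicate block and covariates were alternatives. Replicates differed beyond sampling noise (chi-square over degrees of freedom 1.92 to 11.2).

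The text names all 7 subunits, 6 other sodium channel genes (some genes are not reported here), the 2 genes of lowest p of a list, the most abundant gene of each other tissue and the 3 genes most like each subunit. Members, lists and ratios were chosen with earlier results of these data known.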

Additional observations from a re-analysis of the deposited data

Results flagged for a closer look

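Within the 6 8-week libraries, Scn4b in male library 1 stood apart from the other 5, at 497.3 CPM against 560.6 to 591.1. Among the 4-week libraries the Scn8a to Scn2a count ratio of female library 1 stood apart, at 4.37 against 3.88 to 3.95. In all 22 groups of libraries were examined, of which 2 held such a library, and chance alone sets 1 apart in about 1 of 20 groups.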

How the results depend on the processing

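RLE scaling, no filter and DESeq2 kept the direction and call of each subunit. No filter moved the genes called to 60 for sex and 340 for age in females. Without 1 library, genes called ran from 188 to 1199 for age in males, 62 to 394 in females, 10 to 28 for sex and 1 to 2 for the interaction, and subunits called for age from 0 to 1. Without 1 library the log2 fold change of Scn3a ran from -0.028 to 0.216 (below 0 without male or female 4-week library 1) and that of Scn2b from -0.059 to 0.0065 (above 0 without female 4-week library 2). The Scn8a to Scn2a difference ran from -0.015 to 0.052, below 0 in 4 of 10 fits, and that of Scn4b to Scn2b from 0.20 to 0.26, with adjusted exact p from 0.0317 to 0.0635.

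By the correlation of deviations from group means, 5 of 13 same-number pairs of libraries were above 0.1 (range -0.21 to 0.24). Male and female 4-week libraries of the same number correlated at 0.211, and all 7 subunits were higher in library 2 of both sexes. In a group of 2 libraries the deviations mirror each other, so 0.211 was counted for both numbers. Pairs of different number were not computed, so these values cannot decide whether the replicate numbers pair the libraries. With the replicate block 808 genes were called for age, against 1028, and 0 subunits (Scn4b edgeR adjusted p = 0.0794), with Scn9a at -0.070. The calls of Fgf12, Snap25 and Aldh1l1 ended (0.103, 0.0534 and 0.0782), and Nfasc passed (-0.36, 0.0235).

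Without the lung-bearing libraries 474 genes and 0 subunits were called, with Sftpc at -1.77. Without the adrenal-bearing libraries 393 genes and 0 subunits were called, with Scn11a at -1.35 and Scn10a at -0.31. Age was then compared in females alone. With the muscle score 83 genes and 0 subunits were called. Scn1a was at -0.35, Scn2a at -0.54, Scn3a at -0.62, Scn8a at -0.52, Scn3b at -0.14, Scn11a at -0.79, Chat at -0.13, Ina at -0.25, Slc1a2 at -0.30, Scn9a at -0.93, Scn10a at -0.21 and Nalcn at -0.33. With the neuronal score 45 genes and 0 subunits were called, with Scn2b at 0.021, Scn11a at -1.57, Nefl at -0.042, Dbh at 0.76 and Scn10a at -1.76. With the length score, chosen after seeing the data, 1675 genes were called, against 1028 in the main fit. Scn3a was then at -0.048 and Scn9a at -0.0073. The cause was not tested for any of these. Scn10a and Scn11a had few counts, and depth limits them most.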
